A study of Homo sapiens with 6 samples.

Results

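LTR12C elements of 1500 bp or more were described by their ChIP-seq peak calls and their sequence. They were taken from the deposited list by name and by length, End minus Start of the listed interval, and they numbered 280 of the 579 LTR12C elements and of the 585 LTR elements listed. The other 299 LTR12C, all under 1500 bp, served as the reference. The cells were HEK293T, a human embryonic kidney line labelled WT, transfected with the dCas9-SunTag-VP64 construct and harvested on day 3 without sorting for transfected cells, and all groups carried the construct. The gRNA was either the LTR12C-targeting gRNA #15 or a non-targeting gRNA, and the chromatin was precipitated with 1 of 3 antibodies, against the HA tag of dCas9, H3K4me3 or H3K27ac, which gave 6 groups with 1 library each. The column headers name the antibody and not the gRNA, and the 3 columns were read as the 3 libraries with the LTR12C-targeting gRNA. The list gives y or n for a peak and holds no read counts, so the depth is unknown, and no value of the non-targeting libraries stands beside these calls. It lists only LTR elements with at least 1 peak, and the study looked for peaks at LTR elements whose RNA rose after CRISPRa, so every share is among listed elements and says nothing of long LTR12C that did not rise or had no peak. Intervals are 95% Wilson intervals for shares and 95% Newcombe intervals for differences of shares. They cover counting error over elements only, because elements of 1 library are not replicates, and no p-value was computed.

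LTR12C is the long terminal repeat of ERV9, an endogenous retrovirus of primates, and most copies are solitary LTRs that have lost the viral body. The LTR carries its own promoter, and upstream of it lie tandem repeats with CCAAT boxes, which the transcription factor NFY binds, and GATA motifs. In CRISPRa, a catalytically dead Cas9 carries an activation domain to the site that the gRNA matches beside an NGG PAM. H3K4me3 marks active promoters, and H3K27ac marks active promoters and enhancers alike.

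The gRNA target is shown first, because the sites of long LTR12C differ in number and in letters. The gRNA has 20 bases and positions are counted from 1 at its 5′ end. In the sites, capitals mark the substituted base and the PAM. The site is the best one of each element, the first from the 5′ end where several tie, and all sites within 2 mismatches lay on the sense strand of the LTR.
gRNA #15: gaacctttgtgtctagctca
no substitution: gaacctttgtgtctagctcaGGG
G9A: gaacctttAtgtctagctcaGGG
G9A with another PAM: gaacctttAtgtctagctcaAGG
G11A: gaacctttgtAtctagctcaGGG
C5T: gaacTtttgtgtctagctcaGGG

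A dCas9-HA peak was called at 255 of the 280 long LTR12C (91.1%, 87.2 to 93.9%), against 85.8% of all listed LTR12C. The share was 80.9% (242 of 299) among the shorter LTR12C, and the difference of 10.1 percentage points had an interval of 4.50 to 15.7, which did not include 0. With at least 80% of the windows of 75 bases, the read length, found once in the genome, the difference was 5.42 points (−2.19 to 12.6), and its interval included 0. An H3K4me3 peak was called at 67 long LTR12C (23.9%, 19.3 to 29.3%), close to the 22.8% of all listed LTR12C. An H3K27ac peak was called at 274 (97.9%, 95.4 to 99.0%), against 98.3% of all listed LTR12C. The difference from shorter LTR12C was 2.19 points (−4.63 to 9.04) for H3K4me3 and −0.805 points (−3.39 to 1.55) for H3K27ac, and both intervals include 0. With at least 80% unique windows, the H3K27ac difference was −2.39 points (−6.00 to −0.165), an interval without 0. Both histone peaks were called at 66 long LTR12C (23.6%, 19 to 28.9%, against 22.5% of all listed LTR12C).

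Of the 7 possible combinations, long LTR12C showed 6. dCas9-HA with H3K27ac was the most frequent, at 187 elements (66.8%, 61.1 to 72%), followed by all 3 peaks at 63 (22.5%). H3K27ac alone was found at 21 long LTR12C (7.50%) and at 47 of the 299 shorter ones. The remaining combinations were rare, with dCas9-HA alone at 5 long LTR12C, H3K4me3 with H3K27ac at 3, and H3K4me3 alone at 1. H3K27ac was called at 66 of the 67 long LTR12C with H3K4me3 (98.5%) and at 208 of the 213 without H3K4me3 (97.65%). The 21 elements with H3K27ac alone are among the 208 and are listed only because of that mark, so this comparison is partly set by the listing. Elements with dCas9-HA are listed whatever their histone marks. Among these, H3K27ac was called at all 63 with H3K4me3 and at 187 of the 192 without it. H3K4me3 was called at 63 of the 255 long LTR12C with dCas9-HA (24.7%, 19.8 to 30.3%) and at 4 of the 25 without it (16%, 6.40 to 34.7%), and these intervals overlap. The 25 are listed only because they have a histone peak, which the 255 did not need. The shares are therefore of unlike sets and do not show whether H3K4me3 goes with dCas9-HA.

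**Figure D1:**
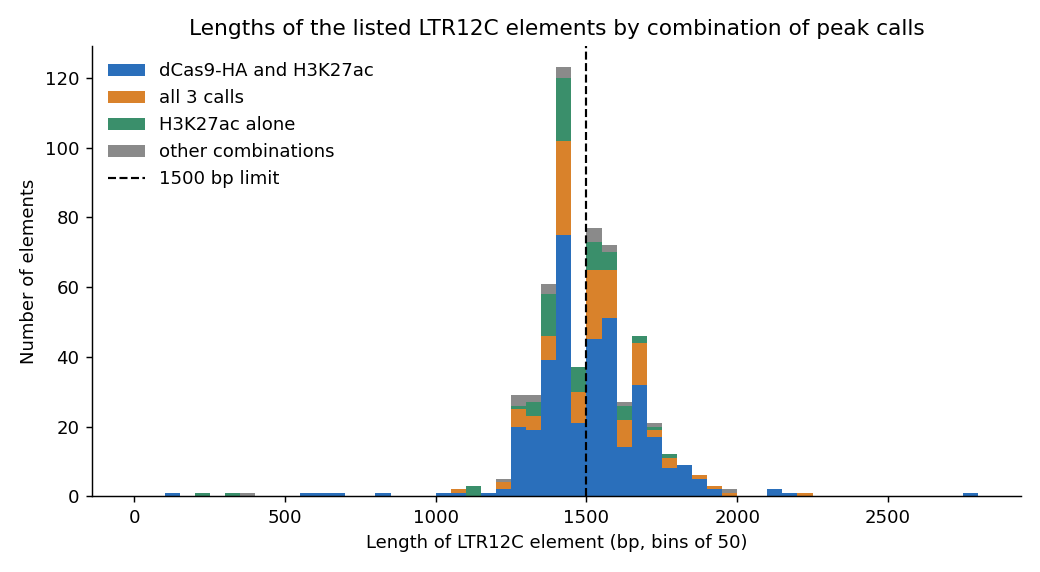
Number of listed LTR12C elements (y axis) by length in bp (x axis, bins of 50), stacked by combination of peak calls; the dashed line is the 1500 bp limit. dCas9-HA with H3K27ac, found at 187 of the 280 long elements, leads on both sides of the limit, and H3K27ac alone falls from 47 shorter to 21 long elements.

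The rarer combinations were found at elements spread over the genome. dCas9-HA alone was found at chr1:96688936-96690462, which is intergenic, and at chr6:28606438-28608082, within a noncoding gene. It was also found in introns, at chr12:133515157-133516701, annotated to CHFR and ZNF605, at chr6:30988316-30990025 in the mucin gene MUC22, and at chr8:4440167-4441763 in CSMD1. The element in CHFR and ZNF605 had the lowest share of unique sequence of all long LTR12C, with 21.1% of its windows found once in the genome. H3K4me3 with H3K27ac but no dCas9-HA was found in introns at chr12:121812086-121813616 in ANAPC5, a subunit of the anaphase-promoting complex, and at chr19:39311977-39313945 in ECH1, an enzyme of fatty acid oxidation. The third such element, chrX:148840057-148841607, was intergenic and had a site with 0 mismatches. H3K4me3 alone was called at chr6:31163058-31164601, within a noncoding gene, 14550 bp from the start site of POU5F1, which encodes OCT4.

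Long LTR12C had lengths between 1501 and 2782 bp (median 1591, quartiles 1548 and 1672). dCas9-HA was called at 89.3% of the 149 elements from 1500 to under 1600 bp, 91.8% of the 73 up to 1700 bp, 93.9% of the 33 up to 1800 bp and 96.0% of the 25 of 1800 bp and over. The order rises with length, but neighboring bins differ by less than their intervals. H3K4me3 showed no such order, with 24.8%, 27.4% and 15.2% in the same bins and 5 of 25 in the last. H3K27ac was called at 145 of 149, 72 of 73, 32 of 33 and 25 of 25. Among the shorter LTR12C, dCas9-HA was called at 82.5% of the 160 elements from 1400 to under 1500 bp and 77.8% of the 90 from 1300 to under 1400 bp.

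**Figure D2:**
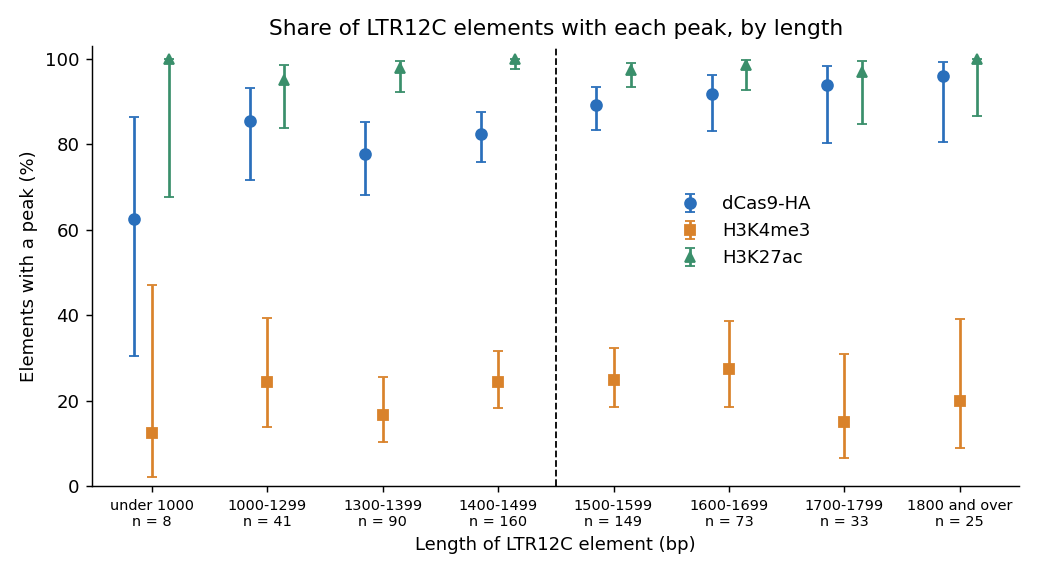
Share of listed LTR12C elements with each peak (y axis, %) in bins of length (x axis, bp); points are shares, bars are 95% Wilson intervals, and the dashed line is the 1500 bp limit. dCas9-HA goes from 89.3% to 96.0% over the 4 long bins, while H3K4me3 stays between 15.2% and 27.4%; the bin under 1000 bp holds only 8 elements.

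On either side of the length limit, 3 elements each were looked at singly: all 3 inside it had dCas9-HA, and 1 of the 3 under it did. These are too few to show a step. In the whole bins from 1400 and from 1500 bp, the share was 82.5% and 89.3%, with overlapping intervals. The shortest long LTR12C, chr11:91001742-91003242 with 1501 bp, is intergenic and had all 3 peaks. The next, chr12:100952977-100954478 with 1502 bp in an intron of the bile acid receptor gene NR1H4, and chr8:64074368-64075872 with 1505 bp, intergenic, had dCas9-HA and H3K27ac. Under the limit by 1 bp, chr6:153155295-153156793 had dCas9-HA and H3K27ac, while chr16:21323168-21324666, also under it by 1 bp, and chr18:57380391-57381888, under it by 2 bp, had H3K27ac alone. At the other end, the longest, chr2:124441166-124443947 with 2782 bp, is intergenic and had dCas9-HA and H3K27ac. The second longest, chrX:46968755-46970972 with 2218 bp and also intergenic, had all 3 peaks, and the next, chr6:21550893-21553078 with 2186 bp in a noncoding gene, had dCas9-HA and H3K27ac.

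In the median, most of the length difference between long and shorter LTR12C lay in the middle of the element. The targets of gRNA #8 and gRNA #20, 2 of the 20 other gRNAs of the study, served as landmarks on either side of the gRNA #15 sites, and both were found within 2 mismatches in 263 of the 280 long and 281 of the 299 shorter LTR12C. The segment 5′ of the landmarks had a median of 637 bp in long and 636 bp in shorter LTR12C, and the segment 3′ of them 480 and 478 bp. Their first quartiles were lower in shorter LTR12C, at 608 against 634.5 bp (5′) and 379 against 478 bp (3′). The middle had a median of 472 bp in long and 312 bp in shorter LTR12C, and this difference of 160 bp compares with one of 186 bp in whole length. Among the 263 long LTR12C, the middle grew by 0.948 bp for each bp of length, with a Pearson's r of 0.92 and a Spearman's rho of 0.83, a description across elements of 1 family of which the middle is itself a part. The 5′ and 3′ segments had a Pearson's r of 0.02 and 0.13 with length. Among the 281 shorter LTR12C, Pearson's r was 0.64 for the 5′ segment, 0.25 for the middle and 0.30 for the 3′ segment. Spearman's rho gave another order, with 0.40 for the 5′ segment, 0.53 for the middle and 0.20 for the 3′ segment. The median of the middle was 431, 547.5, 591 and 751 bp in the bins of 1500, 1600, 1700, and 1800 bp and over.

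The middle is the tandem repeat region that holds the gRNA sites and most CCAAT boxes. A long LTR12C held a median of 3 sites within 2 mismatches of gRNA #15, against 2 in the shorter LTR12C, and the number ranged from 0 to 12. The last site lay at a median of 553 bp from the 3′ end in long and 551 bp in shorter LTR12C, so its place against the 3′ end was nearly the same. Consecutive sites in long LTR12C were most often 210 bp apart (131 of 479 spacings, 27.4%), then 119 bp (88, 18.4%) and 160 bp (76, 15.9%). In the shorter LTR12C, 210 bp (102 of 263, 38.8%) and 160 bp (48) led, and 119 bp made up 19 (7.22%). The spacings 78, 119 and 160 bp differ by steps of 41 bp, as do 169 and 210 bp, and 41 bp was also the most frequent spacing of neighboring CCAAT on the sense strand of long LTR12C (855 of 2158, 39.6%).

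CCAAT occurred at least 4 times in every one of the 280 long LTR12C, with a median of 9 on both strands, against 6 in the shorter LTR12C. It is a common motif, found on either strand in 34.6% of 35116 RefSeq promoters of 300 bp on GRCh38.p14. Its median rose over the length bins from 8 and 9 to 11 and 13. The longest element held the most, 24, with 12 sites within 1 mismatch of the gRNA. Among the elements with the fewest CCAAT, 4, chr4:31997829-31999411 in the noncoding gene LINC02506 had all 3 peaks, and chr9:105248250-105249784 had H3K27ac alone. The GATA factor motif GATAAG was found on either strand in 241 of the 280 elements, against 6.37% of the RefSeq promoters of 300 bp, which are much shorter windows. The letters AATAAA, those of the poly(A) signal, were found on either strand in 278, against 17.4% of the promoters. Whether they act as a signal was not tested. The SP1 factor binds the box GGGCGG, which was found in 129 of the 280 elements and in 45.0% of the promoters. For every motif the promoter windows are much shorter than the elements, so these shares do not compare densities. The median number in long and shorter LTR12C was 1 and 1 for GATAAG, 2 and 2 for AATAAA, and 0 and 1 for GGGCGG. GC content was slightly lower in long LTR12C, with a median of 57.8% against 59.5%, and so was the observed to expected ratio of CpG, 0.445 against 0.480.

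**Figure D3:**
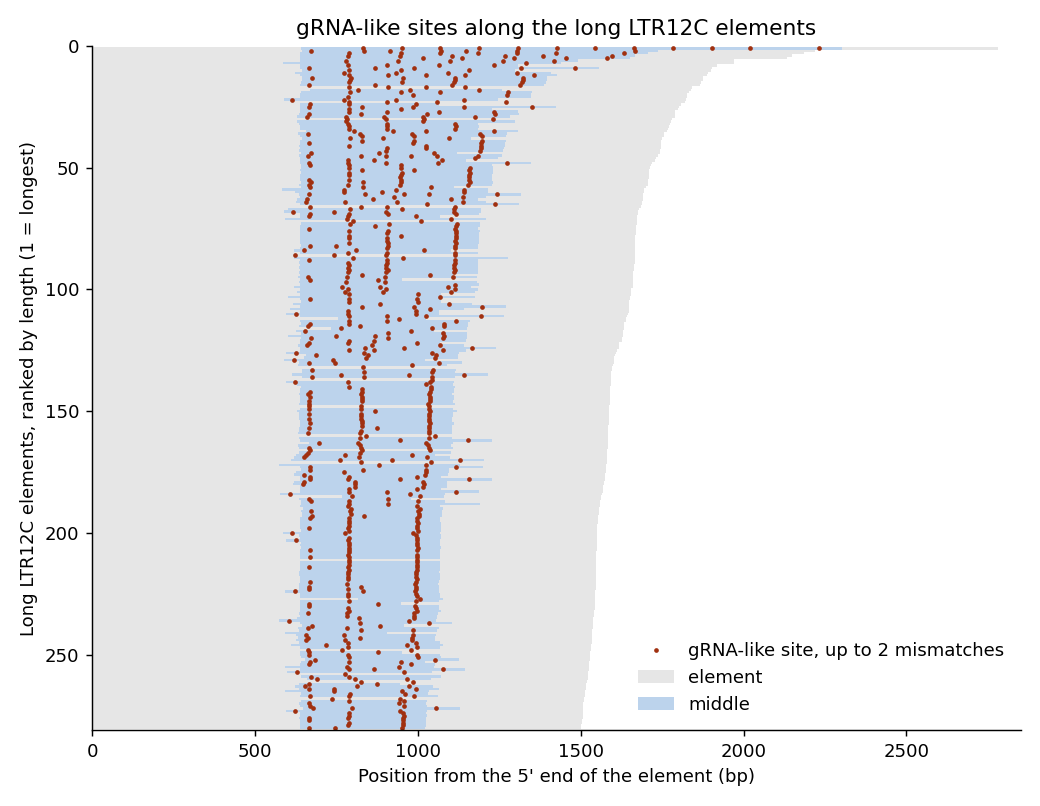
The 280 long LTR12C elements (y axis, ranked from the longest) drawn from the 5′ end (x axis, bp), with the middle between the gRNA #8 and gRNA #20 targets in blue for the 263 elements with both, and each site within 2 mismatches of gRNA #15 as a point. The blue middle widens with length, from a median of 431 bp in the bin of 1500 bp to 751 bp at 1800 bp and over. The sites repeat along the elements, most often 210, 119 or 160 bp apart.

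A site within 1 mismatch of gRNA #15 was found in 269 of the 280 long LTR12C (96.1%, 93.1 to 97.8%). The best site had 0 mismatches in 99 (35.4%), 1 in 170 (60.7%), 2 in 10 and 5 in 1. Among the 299 shorter LTR12C, the best site had 0 mismatches in 134 (44.8%), and a site within 1 mismatch was found in 278. dCas9-HA was called at 94.9% of the 99 long LTR12C with 0 mismatches, 91.2% of the 170 with 1, and 6 of the 10 with 2. The single long LTR12C with 5 mismatches, chr9:105248250-105249784 in a noncoding gene, had H3K27ac alone. H3K4me3 was called at 29.3% (21.2 to 38.9%) of those with 0 mismatches and 20.6% (15.2 to 27.3%) of those with 1, with overlapping intervals.

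Long LTR12C more often held several sites. At least 2 sites within 1 mismatch were found in 197 long LTR12C (70.4%) and in 137 shorter LTR12C (45.8%), and at least 3 in 76 and 10. The mean number per element rose from 1.79 in the bin of 1500 bp over 2.06 and 2.24 to 3.40 at 1800 bp and over. dCas9-HA was called at 6 of the 11 long LTR12C with 0 such sites (54.5%, 28.0 to 78.7%), 58 of the 72 with 1 (80.6%, 70.0 to 88.0%) and 115 of the 121 with 2 (95%, 89.6 to 97.7%). It was called at all 76 long LTR12C with 3 or more (95.2 to 100%). Between elements with the same number of sites, the difference of long from shorter LTR12C was 7.51 points (−4.99 to 18.4) at 1 site and −1.02 points (−6.91 to 4.60) at 2 sites. At 0 sites it was 21.2 points (−12.8 to 50.3), over 11 long and 21 shorter LTR12C. These intervals all include 0. At exactly 3 sites dCas9-HA was called at 100% of both groups. H3K4me3 did not rise with the number of sites in long LTR12C, with 27.3%, 25%, 22.3% and 25% at 0, 1, 2 and at least 3 sites. In shorter LTR12C it was called at 3 of 21, 26 of 141, 33 of 127 and 3 of 10, an upward order with overlapping intervals.

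**Figure D4:**
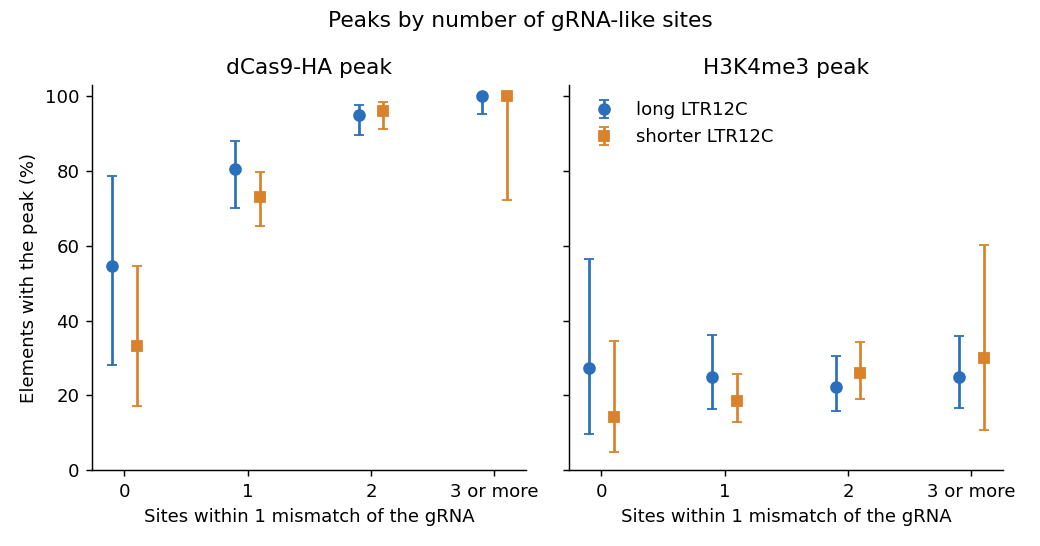
Share of elements with a dCas9-HA peak (left) or an H3K4me3 peak (right) on the y axis (%), by the number of sites within 1 mismatch of gRNA #15 (x axis), for long and shorter LTR12C; bars are 95% Wilson intervals. dCas9-HA goes from 54.5% to 100% in long LTR12C, while H3K4me3 stays between 22.3% and 27.3%.

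The letters of the site moved with the dCas9-HA call as well. The site with G9A and a GGG PAM, printed above, was the best site of 113 long LTR12C (40.4%) and of 80 shorter ones (26.8%), and 110 of the 113 had dCas9-HA (97.3%, 92.5 to 99.1%). The site with no substitution was that of 98 long LTR12C, of which 93 had dCas9-HA (94.9%). G9A with the AGG PAM was found in 23, of which 20 had dCas9-HA, and G11A in 15, of which 13 had it. C5T stood apart, with dCas9-HA at 4 of 11 (36.4%, 15.2 to 64.6%). With the number of sites held fixed, among the 72 long LTR12C with exactly 1 site within 1 mismatch, dCas9-HA was called at 3 of 10 with C5T (interval 10.8 to 60.3%), 14 of 16 with G11A, 20 of 21 with G9A and 18 of 22 with no substitution. Among shorter LTR12C with exactly 1 such site, dCas9-HA was called at 3 of 9 with C5T and 21 of 35 with G11A. It was called at 26 of 29 with G9A and 47 of 57 with no substitution. Windows were unique at a median of 94.7% in the 10 long LTR12C with C5T. The median was 80.1% with G11A, 81.5% with G9A and 88.3% with no substitution, and the part of unique sequence was not tested. The substitutions were singled out after their values were seen.

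The 25 long LTR12C without dCas9-HA held 0 sites within 1 mismatch in 5 cases, 1 in 14 and 2 in 6. Their windows of 75 bases were unique at a median of 86.8%, against 82.0% in the 255 with dCas9-HA. With the elements ordered by unique sequence, from the lowest 70 to the highest 70, dCas9-HA was called at 97.1%, 97.1%, 87.1% and 82.9%. Among the 167 long LTR12C with at least 80% unique windows the share was 86.2% (80.2 to 90.6%), and the difference from shorter LTR12C is given above. The number of sites kept its order there, with dCas9-HA at 39 of 52 elements with 1 site, 65 of 71 with 2 and 34 of 34 with at least 3. Under 80% unique windows, it was called at 19 of 20 with 1 site, 50 of 50 with 2 and 42 of 42 with at least 3. Unique sequence and the number of sites moved together, from a median of 84.6% at 1 site to 78.7% at 3 or more, and the part of mapping in the dCas9-HA calls was not tested.

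H3K4me3 stood at long LTR12C of like length and repeat content to those without it. The 67 with H3K4me3 had a median length of 1585 bp and 9 CCAAT, and the 213 without it 1592 bp and 9 CCAAT. The CpG ratio was slightly higher with the mark, with a median of 0.470 (quartiles 0.417 and 0.514) against 0.442 (0.402 and 0.480). CpG dinucleotides numbered 65 against 59 in the median, and the ranges overlapped. Among shorter LTR12C the CpG ratio was 0.489 with and 0.478 without the mark.

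H3K4me3 calls varied between chromosomes. Long LTR12C were most numerous on chromosome 6 and on the X chromosome, with 30 each. On the X chromosome 14 of the 30 had H3K4me3 (46.7%, 30.2 to 63.9%), against 53 of the 250 on autosomes (21.2%, 16.6 to 26.7%). The difference of 25.5 points had an interval of 8.14 to 43.3. Several of the X elements lie near each other, as from chrX:117932736 to chrX:118883802, and the interval takes no account of this. Single autosomes varied too, with H3K4me3 at 8 of 20 on chromosome 5, 8 of 30 on chromosome 6, 3 of 5 on chromosome 17 and 2 of 24 on chromosome 3. dCas9-HA was called at 27 of the 30 on the X chromosome (90.0%) and 91.2% of the autosomal ones, so this call did not show the same split. The shorter LTR12C had H3K4me3 at 3 of 16 on the X chromosome and 62 of 283 on autosomes. The X chromosome was picked after its values were seen, its long LTR12C had fewer unique windows (a median of 76.0% against 83.4% on autosomes), and the part of unique sequence in this difference was not tested.

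**Figure D5:**
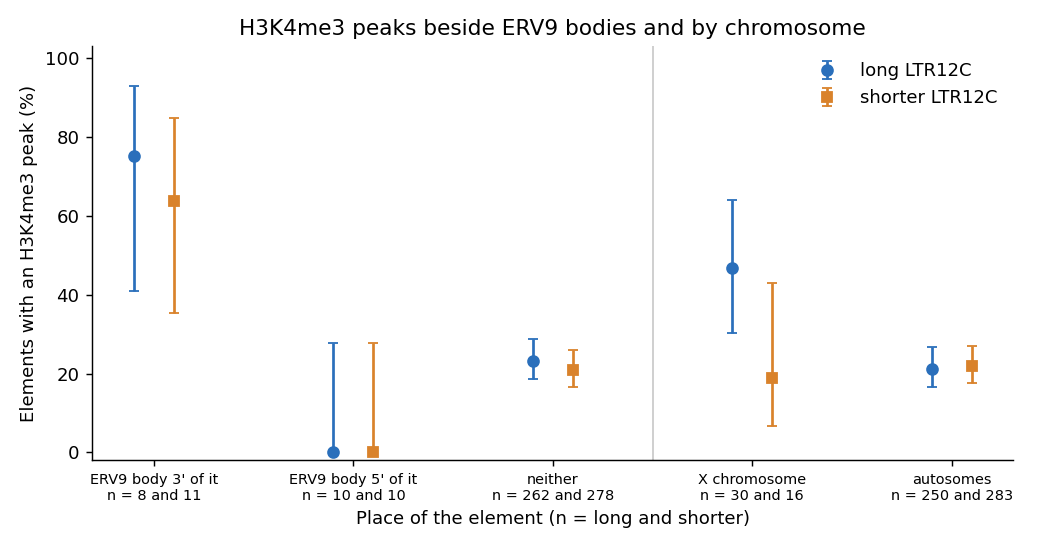
Share of LTR12C elements with an H3K4me3 peak (y axis, %) by place (x axis), for long and shorter LTR12C; bars are 95% Wilson intervals. Long LTR12C followed by an ERV9 body had the mark at 6 of 8 and those preceded by one at 0 of 10, and those on the X chromosome at 14 of 30 against 53 of 250 on autosomes.

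A few long LTR12C still flank an ERV9 body, and there H3K4me3 went with the side. In the sense direction, the 5′ LTR of a provirus is followed by the viral body and the 3′ LTR is preceded by it. ERV9 sequence, sought with a query of 8314 bp from chr11:101102623-101110936 between a pair of LTR12C, followed 8 long LTR12C, and H3K4me3 was called at 6 of them (75%, 40.9 to 92.8%). It preceded 10, and H3K4me3 was called at 0 of the 10, which allows a share of up to 30% when 3 counts are taken as the limit of a count of 0 (the Wilson upper limit is 27.8%). The shorter LTR12C showed the same order, with H3K4me3 at 7 of 11 followed and 0 of 10 preceded by ERV9 sequence. H3K27ac was called at 7 of the 8 long LTR12C followed by it and 10 of the 10 preceded by it, and dCas9-HA at 6 and 10. The 262 long LTR12C with neither had H3K4me3 at 61 (23.3%), so most long LTR12C with the mark lay beside no ERV9 body found with this query.

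Neighboring LTR12C on the same strand with starts within 15 kb formed 10 pairs with a long member. The counts beside ERV9 bodies above include elements of these pairs, so they are not separate observations. In 8 pairs H3K4me3 marked the upstream element and not the downstream one, in 0 the downstream one alone, and 2 pairs had no H3K4me3. Over all 20 pairs of listed LTR12C, those without a long element included, the mark was on the upstream element alone in 12, on the downstream one alone in 2 and on neither in 6. Both elements of all 10 pairs with a long member had H3K27ac. On chromosome 1, chr1:119713987-119715334 with 1348 bp had all 3 peaks, and the long element chr1:119721508-119723014, 6173 bp further, had dCas9-HA and H3K27ac. Both elements were long in the pair chr1:175076241-175078158 and chr1:175070212-175072001 on the minus strand, with 1918 and 1790 bp and 4 and 2 sites within 1 mismatch, and the upstream one alone had H3K4me3. The same held for chr11:42895286-42896945 and chr11:42902751-42904470, with 2 and 3 sites, so the element with more sites was not always the marked one. In chr12:8939679-8941264 and chr12:8947139-8948723, the elements had 1586 and 1585 bp and 1 site each, and again the upstream one alone had H3K4me3. The upstream element chr11:67386324-67387896, with 3 sites, had all 3 peaks, and its partner was a fragment of 112 bp at chr11:67393757-67393868. On the X chromosome, chrX:74398289-74399918 had all 3 peaks with 0 sites within 1 mismatch, and chrX:74392372-74393997, downstream with 1 site, had dCas9-HA and H3K27ac. Of the 8 pairs with the mark upstream, the 6 above held ERV9 sequence between the elements, and the other 2, both on the X chromosome, had gaps of 56 bp without it. Among pairs without the mark, the chromosome 11 pair flanks the query itself, and the chromosome 18 pair abuts with a gap of 0 bp.

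By place in the GENCODE annotation, 144 long LTR12C were intergenic (51.4%), 65 lay in noncoding genes (23.2%), 59 in introns of protein-coding genes (21.1%) and 12 overlapped an exon of one (4.29%). H3K4me3 was called at 21.5% of the intergenic, 32.3% of the noncoding, 16.9% of the intronic and 5 of the 12 exonic elements, with overlapping intervals. In the coding genes, 37 elements had the strand of the gene and 34 the opposite one, with H3K4me3 at 7 and 8. Within 10 kb of a coding start site lay 36 long LTR12C (12.9%, 9.43 to 17.3%), against 74 shorter ones (24.7%, 20.2 to 29.9%). Within 50 kb the shares were 49.6% (43.8 to 55.5%) and 54.5% (48.8 to 60.1%), with overlapping intervals, and introns of coding genes held 59 long and 52 shorter LTR12C.

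Of the 12 exonic elements, 5 had all 3 peaks. They overlapped exons of SLC37A2, a sugar phosphate transporter (chr11:124959209-124960750), TPH2, which makes serotonin in neurons (chr12:72578637-72580384), NPC1, the lysosomal cholesterol transporter (chr18:21156497-21158159), ZFAND2B (chr2:220065170-220066713) and CHM, the Rab escort protein (chrX:85226261-85227925). All but the element in ZFAND2B had the strand of the gene. Another 6 had dCas9-HA and H3K27ac without H3K4me3, at RASL12 (chr15:65367180-65368926), the cytokine gene IL16 (chr15:81450777-81452297), ZNF80 (chr3:113955988-113957703), the kinase gene MAPK10 (chr4:86941664-86943325), HSD17B4 of peroxisomal fatty acid oxidation (chr5:118852617-118854155) and the sulfatase gene SULF1 (chr8:70537606-70539264). The element at IRGM, a GTPase of autophagy (chr5:150224844-150226495), had H3K27ac alone. Annotated start sites of ZNF80 and IRGM lay inside their elements, at 1279 and 1240 bp from the 5′ end, which is 330 and 171 bp past the last gRNA site.

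A coding start site on the strand of the element lay inside or within 10 kb downstream of 15 long LTR12C, of which 3 had H3K4me3 and 12 did not (7.05 to 45.2% with it, against 23.9% of all long LTR12C). Of the 3 with the mark, chr17:5674382-5676053 lay 193 bp before ENSG00000285471, chr17:7544032-7545595 lay 4350 bp before ATP1B2, a subunit of the sodium pump, and chrX:24067627-24069265 lay 3808 bp before EIF2S3, a subunit of the translation initiation factor eIF2. All 3 elements had all 3 peaks. Of the 12 others, chr1:89592702-89594292 lay 905 bp before GBP2, an interferon-induced GTPase, and had dCas9-HA and H3K27ac without H3K4me3. GBP2 was chosen after these calls were seen.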

How the data were processed

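HEK293T chromatin was precipitated with 3 antibodies after CRISPRa with either gRNA (6 libraries, of which 3 were used here). Per the methods of the study, Bowtie2 placed the reads, single-end with 75 bases, on GRCh37/hg19. The header of the deposited table names MACS for the peaks. The values deposited by the authors are y or n for a peak at an LTR element, with no unit. Versions, the MACS threshold, the control library and the rule that assigns a peak to an element are not given in the sources used here.

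Starts were read as counted from 0 and are printed from 1, since 345 of 585 elements then begin with TG and end with CA, against 1 of 585 otherwise. Sequences were read from GRCh37 (samtools 1.23.1, pysam 0.24.0), oriented by the 21 gRNAs of the study, and searched for gRNA #15 sites with an NGG PAM. ERV9 was sought with BLAST 2.17.0 (E-value 1e-10, match within 100 bp). The query was a gap between LTR12C that matched 12 other gaps, with 14 gaps compared. Genes came from GENCODE release 44 lifted to GRCh37. Wilson and Newcombe intervals used Python 3.11.15, numpy 2.4.6 and scipy 1.17.1, and figures matplotlib 3.10.9. The calculations were tested on simulated data.

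The members, bins and lists were chosen with earlier results of these data known. Named were the 3 longest elements, the 3 on each side of 1500 bp, combinations with 5 or fewer elements, up to 6 pairs with ERV9 between them whose H3K4me3 calls differ, the extremes in CCAAT, genes with an exon on an element, and coding start sites within 10 kb downstream of an element with H3K4me3. Other elements and genes were picked after their values were seen. The non-targeting libraries were not analysed here. A few items are not reported here.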

Additional observations from a re-analysis of the deposited data

How the results depend on the processing

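The shares and differences were recomputed with length limits of 1400 and 1600 bp, on autosomes only, without elements that have another listed LTR12C within 15 kb, with dCas9-HA-positive elements only, with elements that have a gRNA #15 site within 1 mismatch only, with at least 80% unique windows only, and against shorter LTR12C of at least 1000 bp; sites were also sought with any PAM, pairs within 10 and 20 kb, and ERV9 within 500 bp. Of 71 recomputed values, 70 moved by less than their interval or, for counts, by less than 1.5 times. The exception was the share of long LTR12C with dCas9-HA, which was 86.2% with at least 80% unique windows against 91.1%; the cause was not tested. The dCas9-HA difference between long and shorter LTR12C fell there from 10.1 to 5.42 points, within its first interval of 4.50 to 15.7, but its own interval then included 0. The H3K4me3 difference between long and shorter LTR12C, whose interval includes 0, turned to −0.708 points on autosomes only and −0.906 with at least 80% unique windows. The H3K27ac difference was 1.51 points with the limit of 1400 bp and −2.39 (−6.00 to −0.165) with at least 80% unique windows, where its interval no longer includes 0. No paired analysis was possible because each antibody was sequenced once with each gRNA. The depth of the libraries is unknown, so an element called n may have had signal under the threshold.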
